A study of Homo sapiens with 3 samples.

Results

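The histone gene cluster on chromosome 6 was examined for peaks of PHF13 and EZH2. Its members were taken by position and name, as all protein-coding genes in the 1.9 Mb of chromosome 6 from 26 Mb on (GRCh37/hg19) whose symbol began with H1-, H2AC, H2BC, H3C or H4C. This gave 49 of the 20162 protein-coding genes of the annotation, with 6 genes for linker histone H1, 11 for H2A, 12 for H2B, 10 for H3 and 10 for H4. They lay in 3 blocks, with 28 genes in a first block of 269 kb, 5 genes in a second block of 21.7 kb and 16 genes in a last block of 86.4 kb. One further H4 gene of the first block, HIST1H4B (ENSG00000124529, chr6:26027124-26027480, minus strand), is listed under its older symbol and was therefore not a member by name, although its RefSeq symbol is H4C2. Its values are given separately. The histone genes H2BC7, H2BC8 and H4C6 of this region were not analysed here, since no protein-coding record of that name was found in the annotation used, so the counts by class and of gene pairs cover the 49 members only.

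Most of these are replication-dependent histone genes. They are short, mostly without introns, are transcribed mainly in S phase, when new DNA has to be packed, and give messages that end in a stem-loop in place of a poly(A) tail. H2A, H2B, H3 and H4 form the core of the nucleosome, and H1 binds the DNA between nucleosomes. PHF13 is a PHD-finger protein that reads histone H3 methylated at lysine 4, a mark of active promoters, and EZH2 is the enzyme of Polycomb repressive complex 2 that methylates lysine 27 of the same histone.

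Chromatin came from PANC-1, an established cell line from a human pancreatic ductal carcinoma, given as wild type with no treatment listed. ChIP-seq (sequencing of DNA that an antibody pulls down with its protein) was done with 1 library for a PHF13 antibody, 1 for an EZH2 antibody and 1 of input chromatin, which received no antibody and served as the control for both peak lists. All were crosslinked with EGS, which links proteins to each other, before formaldehyde. The lists held 19039 PHF13 peaks and 21639 EZH2 peaks. With 1 library per antibody in 1 cell line, no difference below has a replicate check, and no p-value is given. Intervals are Wilson 95% intervals for a share of genes. They cover counting error only, and neighbouring genes that share a peak are not independent.

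The promoters of the 6 members whose start lay under a PHF13 peak, or 27 bp from one, are shown first, since these starts were the closest to PHF13. Each sequence is the 120 bases before the start site, written 5′ to 3′ on the gene's own strand, and capitals mark the TATA motif TATAAA, the CCAAT motif (or its reverse, ATTGG) and the octamer ATTTGCAT. H3C2 and H3C11 encode the replication-dependent histone H3, H4C4 and H4C13 encode H4, H2BC3 encodes a histone H2B and H1-4 the linker histone H1.4. The windows are chr6:26032328-26032447 (minus strand, H3C2), chr6:27840125-27840244 (minus, H3C11), chr6:26189341-26189460 (minus, H4C4), chr6:27841313-27841432 (minus, H4C13), chr6:26043942-26044061 (minus, H2BC3) and chr6:26156437-26156556 (plus, H1-4).
H3C2: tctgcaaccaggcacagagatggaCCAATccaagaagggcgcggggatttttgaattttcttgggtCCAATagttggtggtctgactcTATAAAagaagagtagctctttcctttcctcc
H3C11: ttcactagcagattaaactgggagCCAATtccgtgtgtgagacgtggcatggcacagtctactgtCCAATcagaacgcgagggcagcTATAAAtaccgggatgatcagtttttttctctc
H4C4: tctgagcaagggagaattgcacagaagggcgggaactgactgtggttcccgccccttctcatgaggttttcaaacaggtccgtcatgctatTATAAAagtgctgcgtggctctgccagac
H4C13: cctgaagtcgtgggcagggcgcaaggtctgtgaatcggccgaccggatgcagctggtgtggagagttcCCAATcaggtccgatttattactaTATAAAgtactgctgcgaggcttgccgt
H2BC3: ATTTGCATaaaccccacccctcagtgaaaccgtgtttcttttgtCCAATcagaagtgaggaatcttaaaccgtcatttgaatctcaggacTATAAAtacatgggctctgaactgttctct
H1-4: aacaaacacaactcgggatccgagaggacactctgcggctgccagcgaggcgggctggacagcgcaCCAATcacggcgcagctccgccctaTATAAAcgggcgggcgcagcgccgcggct
All 6 held TATAAA at a like place, with its first base between positions -33 and -28 from the start. All but H4C4 also held CCAAT, and H2BC3 alone of the 6 held the octamer.

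To determine where the readers and writers of histone methylation lay in this cluster, the peaks of both lists were assigned to the start sites of the members. PHF13 peaks lay within 1 kb of a start of 11 of the 49 members (22.4%, interval 13 to 35.9), beside 13.6% of all protein-coding genes. Within 5 kb the count was 15 (30.6%, 19.5 to 44.5), beside 21.0% of all genes. EZH2 peaks lay within 1 kb of 0 members, beside 16.6% of all genes, and within 5 kb of 0 members, beside 23.6%. The Wilson interval of 0 of 49 reaches 7.27%, and the limit from 3 counts of 49 is 6.12%, both below both background shares. No member had peaks of both lists, which follows from the 0 members with an EZH2 peak. Of all genes, 2.01% had both within 1 kb and 5.33% within 5 kb, both inside the interval of 0 of 49.

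The PHF13 shares thus stood above those of all genes, but both backgrounds lay inside the members' intervals, so a higher share at the cluster was not detectable by this count. It depends on which peaks are counted. With single-copy peaks only, the counts were again 11 and 15, beside 12.4 and 18.1% of all genes, both below the members' intervals. Stricter limits lowered the counts. With −log10 q (negative log10 of the peak caller's false discovery rate) of at least 3 or 5, 8 and 3 members had a PHF13 peak within 1 kb. Of all genes, 9.08 and 3.98% did, and no interval was computed for these counts. The comparison also depends on how many starts a gene has, since a gene is counted if any of its starts lies near a peak. Of the members, 40 had a single annotated start and 9 had more, with a median of 1, whereas the median over all protein-coding genes was 5. An alternative took 1 start per gene, the 5′ end of the gene record. The count of members was then again 11 within 1 kb and 15 within 5 kb. The background fell to 9.63% and 14.6% for PHF13, both below the members' intervals, and to 12.6% and 18.6% for EZH2. That end is not always the canonical start. Genes with several starts can thus lose a peak at another start, which members with a single start cannot. The background at canonical starts alone was not computed. With HIST1H4B counted, PHF13 peaks lay within 1 kb of 12 of 50 genes (24%, 14.3 to 37.4) and within 5 kb of 16 (32.0%), and EZH2 peaks within 5 kb of 0.

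**Figure D1:**
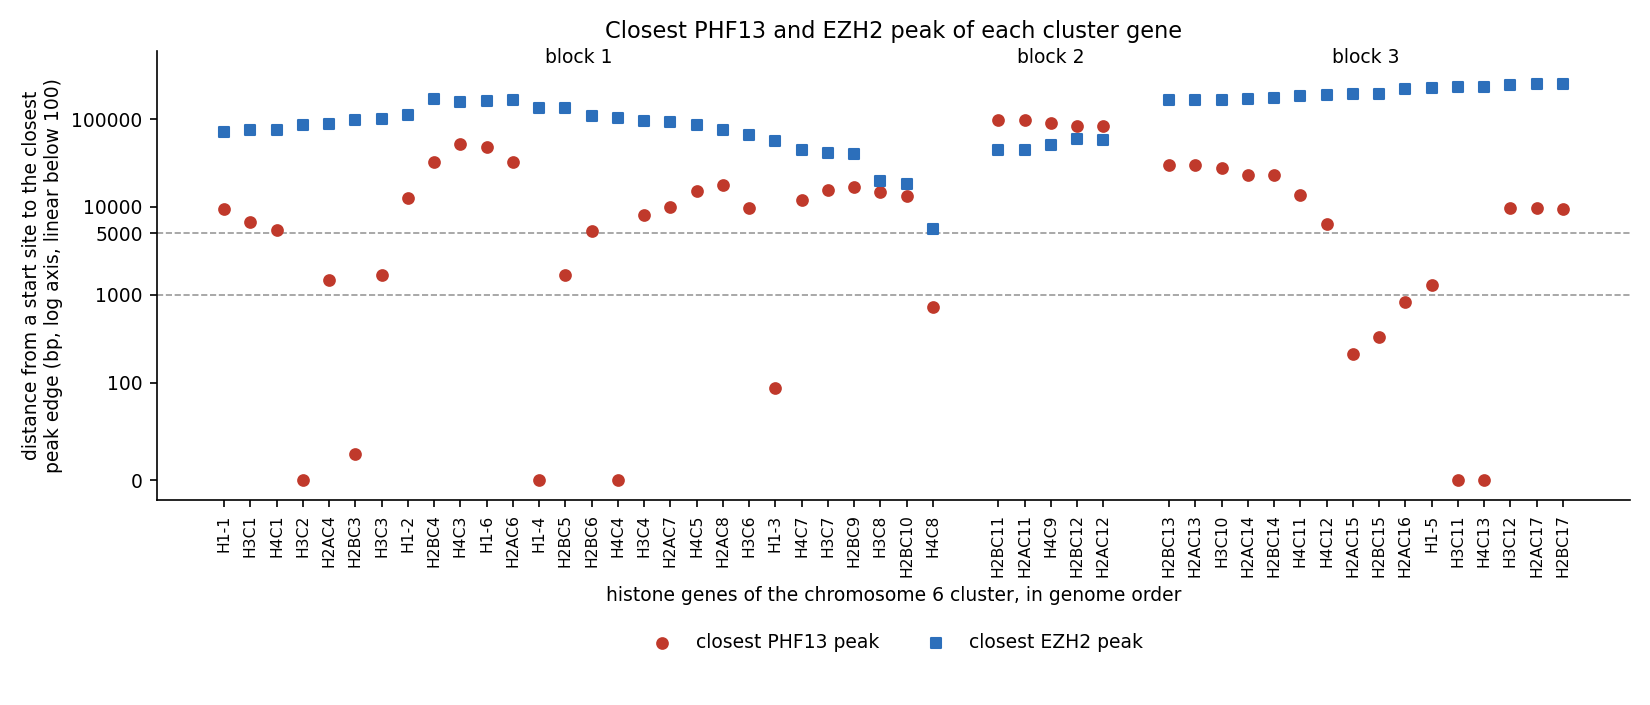
Distance in bp from each of the 49 cluster genes (x axis, in genome order) to the edge of its closest PHF13 peak (red circles) and EZH2 peak (blue squares), on a log axis that is linear below 100 bp, with dashed lines at 1 and 5 kb. PHF13 points fall to 0 in blocks 1 and 3 and stay at 83295 bp or more in block 2, and every EZH2 point lies above 5 kb.

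Among the core histone genes, the H3 and H4 genes held most of the peaks that crossed a start. At H3C2 (chr6:26031817-26032327, minus strand) a PHF13 peak at chr6:26032127-26032374 covered the start and had its summit 73 bp inside the gene, in the coding sequence. It held 31 PHF13 fragments over a local background of 6.71 fragments from input, a fold enrichment of 4.15. Fold enrichment here has 1 added to the fragments and 1 to the background, so it is lower than their plain ratio. The −log10 q was 7.89 (the negative log10 of the false discovery rate that the peak caller gave). At H3C11 (chr6:27839623-27840124, minus) the peak at chr6:27839923-27840140 also covered the start, with its summit 61 bp inside the gene, but it was weaker, at 22 fragments over 5.96, fold enrichment 3.30 and −log10 q 3.58. The summits of the peaks at both H3 genes were thus at nearly the same place of the gene. The other 8 H3 genes had no PHF13 peak within 1 kb, and among them H3C3, in which the closest peak lay 1698 bp away over H2BC3, had one within 5 kb.

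Histone H4 is encoded by many genes, most of which give the same protein, and PHF13 peaks lay within 1 kb of 3 of the 10 in the list of members. H4C4 (chr6:26188938-26189340, minus) had the second highest −log10 q of the cluster, 7.94, from a peak at chr6:26189297-26189453 that held 27 fragments over 5.08, a fold enrichment of 4.60. Its summit lay at -22 bp, just before the start. H4C13 (chr6:27840926-27841312, minus) had a peak at chr6:27841182-27841447 with its summit at -95 bp, 21 fragments over 5.92, fold enrichment 3.18 and −log10 q 3.15. So the H4 summits of these 2 genes lay before the start, and the H3 summits after it. At H4C8 (chr6:26277837-26285866, minus) the peak at chr6:26286594-26286737 lay 728 bp before the closest start and was the weakest of the cluster, with 16 fragments over 5.20, fold enrichment 2.74 and −log10 q 1.75. HIST1H4B had a peak over its start at chr6:26027389-26027548, with fold enrichment 3.34 and −log10 q 4.05. Its summit lay 13 bp inside the gene, unlike those of H4C4 and H4C13, so the H4 summits did not all lie before the start.

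The H2A and H2B genes are mostly arranged in divergent pairs that share 1 promoter. Of the 7 such pairs among the members, with 193 to 250 bases between the starts, 1 had PHF13 peaks within 1 kb and 0 had EZH2 peaks. In this pair, H2AC15 and H2BC15, the peaks were not in the shared promoter. One lay at chr6:27805695-27805943 inside H2AC15, with its summit 346 bp after the start, and the other at chr6:27806709-27806935 inside H2BC15, with its summit 394 bp after the start. Both were weak, with fold enrichments of 2.77 and 3.15 and −log10 q of 1.79 and 2.64. The H2BC15 summit was also the only 1 of the cluster whose sequence was not single-copy, with 31.2% of its 24-base words found once in the genome.

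The strongest peak of the cluster by −log10 q lay at H2BC3 (chr6:26043455-26043941, minus), an H2B gene without a divergent partner among the members. The peak at chr6:26043667-26043914 began 27 bp inside the gene and had its summit 137 bp after the start, with 31 fragments over 5.64, fold enrichment 4.82 and −log10 q 9.75. It stood above 92.0% of the whole PHF13 list by fold enrichment and above 88.7% by −log10 q. H2AC16 (chr6:27833095-27833576, plus) was counted through a peak at chr6:27833920-27834086 that lay beyond the end of the gene, 825 bp from its start, between it and H1-5, with fold enrichment 3.40 and −log10 q 4.00. H2AC4 and H2BC5 had a peak within 5 kb only. These were the peaks over H3C2, 1472 bp from H2AC4, and over H1-4, 1682 bp from H2BC5.

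Among the 6 linker histone genes, 2 had a PHF13 peak within 1 kb. H1-4 (chr6:26156557-26157343, plus), which encodes H1.4, had a peak over its start at chr6:26156512-26156668, with the summit 66 bp inside the gene, 23 fragments over 5.95, fold enrichment 3.45 and −log10 q 4.12. H1-3 (chr6:26234440-26235215, minus), which encodes H1.3, had a peak at chr6:26234968-26235121 that began 94 bp inside the gene, with 20 fragments over 4.72, fold enrichment 3.67 and −log10 q 3.98. H1-5 had its closest peak 1280 bp away, the one counted for H2AC16. H1-1, H1-2 and H1-6, the last of which encodes the testis-specific H1, had no peak of either list within 5 kb, with the closest PHF13 peak 9374, 12784 and 48149 bp away.

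**Figure D2:**
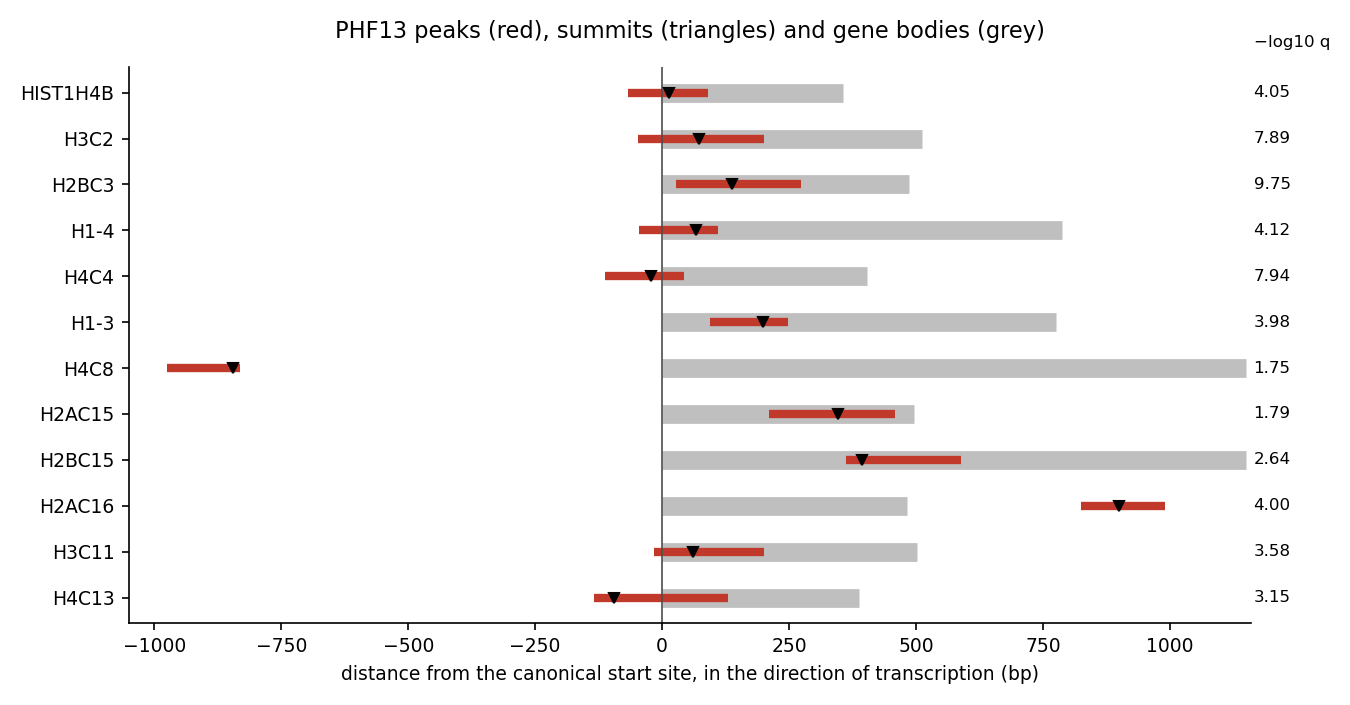
PHF13 peaks within 1 kb of a cluster gene (red bars, summits as black triangles), drawn in bp from the canonical start in the direction of transcription, with gene bodies in grey (H4C8 and H2BC15 run past the right edge) and −log10 q at the right. Peaks at H3C2, H1-4, H4C4, H3C11, H4C13 and HIST1H4B cross the start, and most others lie inside the gene.

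By place, 5 of the 11 peaks within 1 kb of a member covered a start, 7 had their summit within 200 bp of a canonical start and 7 had it in coding sequence. Over the whole PHF13 list, 1826 summits lay within 1 kb of a canonical start, of which 47.9% were within 200 bp and 60.1% were on the downstream side.

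The windows of 61 bases around 6 of the coding summits show which part of each gene the peak stood over. Sequences are in GRCh37/hg19, 5′ to 3′ on the gene's strand, and capitals mark the central 11 bases, with the summit as the middle base. The windows are chr6:26032224-26032284 (minus strand, H3C2), chr6:27840033-27840093 (minus, H3C11), chr6:26043774-26043834 (minus, H2BC3), chr6:26234986-26235046 (minus, H1-3), chr6:27805777-27805837 (minus, H2AC15) and chr6:27806711-27806771 (plus, H2BC15).
H3C2: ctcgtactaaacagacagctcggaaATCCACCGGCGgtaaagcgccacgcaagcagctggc
H3C11: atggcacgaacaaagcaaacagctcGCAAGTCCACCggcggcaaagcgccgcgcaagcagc
H2BC3: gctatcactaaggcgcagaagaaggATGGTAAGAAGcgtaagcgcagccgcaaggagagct
H1-3: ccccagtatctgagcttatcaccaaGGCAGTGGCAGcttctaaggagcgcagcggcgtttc
H2AC15: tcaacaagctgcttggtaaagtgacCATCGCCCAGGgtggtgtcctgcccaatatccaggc
H2BC15: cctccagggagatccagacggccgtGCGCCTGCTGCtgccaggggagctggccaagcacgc
In both H3 genes the summit window spanned the codons for lysine 4 and lysine 9 of the H3 tail, residues counted without the first methionine, and the peak as a whole also spanned the codon for lysine 27. The codon for lysine 4 was AAA in H3C2 and AAG in H3C11. Of the 24-base words at these summits, 100% in H3C2 and 76.6% in H3C11 occur once in the genome. None of the 11 member peaks held the AP-1 motif TGACTCA (or its reverse, TGAGTCA) within 200 bp around the summit, where 11.2% of the whole PHF13 list held it.

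By strength, the 11 member peaks stood around the middle of the PHF13 list. Their fold enrichment ran from 2.74 to 4.82 with a median of 3.40, beside 3.41 for the whole list, and 5 of the 11 stood above the list's median. Their −log10 q ran from 1.75 to 9.75 with a median of 3.98, beside 3.57, and 7 of the 11 stood above the list's median. The fragments at the summit ran from 16 to 31, with a median of 22 beside 21 in the list. The input background was 4.72 to 6.71 fragments with a median of 5.64, beside 5.13 in the list, and at none of the 11 was it at the floor of 4.23 fragments that the peak caller sets where input is sparse, as it was for 21.3% of the list.

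**Figure D3:**
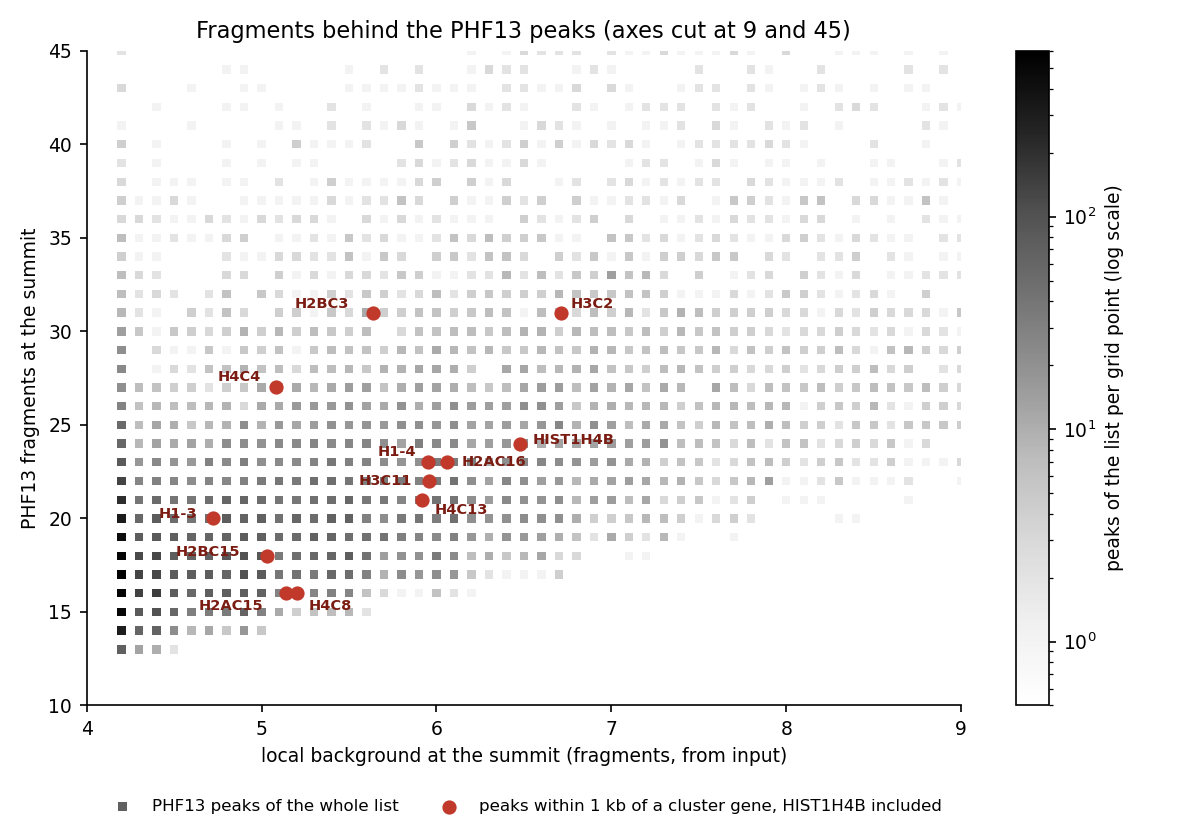
PHF13 fragments at the summit (y axis) against the local background from input (x axis, in fragments), with the whole PHF13 list as a grey grid shaded by the number of peaks and the peaks at cluster genes in red. H3C2 and H2BC3 reach 31 fragments, H4C4 has 27, and H2AC15 and H4C8 have 16, close to the lower edge of the list.

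EZH2 had no peak in any of the blocks. The closest EZH2 peak to a member lay 5614 bp from a start of H4C8, at chr6:26291480-26291629, beyond the end of the first block, with fold enrichment 3.87, −log10 q 4.83 and 20 fragments over the floor of 4.42. The next member in order, H2BC10, lay 18321 bp from its closest EZH2 peak, and the median over the members was 102140 bp, beside 9774 bp for PHF13. Within 20 kb, 3 members had an EZH2 peak and 35 had a PHF13 peak, but neighbouring members share peaks. Neither these counts nor the median distances were taken over all genes, so they have no reference. The stretches without an EZH2 peak around the blocks were 345, 117 and 565 kb long. On chromosome 6, 107, 404 and 52 of the 1332 gaps between EZH2 peaks were at least that long, and the median gap was 51.6 kb. Long gaps cover more of the chromosome than their number shows, and the share of its length in such gaps was not computed. Each stretch is also at least as long as the block it contains.

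Elsewhere in the window EZH2 peaks were present, though none lay closer than 164754 bp to a start of the last block. All 27 EZH2 peaks of the window lay outside the blocks, at 17.7 per Mb, beside 7.79 per Mb over chromosome 6. For PHF13, 11 of the 29 peaks of the window lay inside the blocks, at 29.2 per Mb. The rates were 11.8 per Mb in the rest of the window and 7.11 per Mb over chromosome 6. These 11 are not the same set as the 11 peaks within 1 kb of a member. They include the peak at HIST1H4B and leave out that at H4C8, which lies past the end of the first block. The blocks were drawn around the 49 members and span 377 kb, so gene starts are dense in them. The rates per Mb were not adjusted for the number of starts. The faintest peaks of the EZH2 list held 13 fragments at the summit, so EZH2 occupancy below this would not be listed. That count was reached with background at the floor, and more fragments are needed where background is higher. The EZH2 background inside the blocks is not known, since no EZH2 peak lay there. Depth per library is not known from peak lists.

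Within the cluster, PHF13 peaks were spread over the histone classes, with 2 of 6 H1 genes, 2 of 11 H2A genes, 2 of 12 H2B genes, 2 of 10 H3 genes and 3 of 10 H4 genes within 1 kb. Within 5 kb each class had 3. The intervals of all classes overlapped, as those of H1 (9.68 to 70.0%) and H2B (4.7 to 44.8%) show. By block the counts within 1 kb were 6 of 28, 0 of 5 and 5 of 16. In the second block, which holds H2BC11, H2AC11, H4C9, H2BC12 and H2AC12, the closest PHF13 peak lay 83295 to 97606 bp away, and the closest EZH2 peak 44492 to 58668 bp away. The interval of 0 of 5 genes reaches 43.4%, so a lower share than in the other blocks was not detectable with this number of genes.

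Other genes of the window were compared first. Of the 16 that are no histone genes, ZNF184, a zinc finger gene, was the 1 with PHF13 nearby within 1 kb (6.25%, 1.11 to 28.3). EZH2 peaks lay within 1 kb of 2 (12.5%, 3.50 to 36.0). These were BTN1A1, a butyrophilin gene, with a peak at chr6:26501272-26502544 of fold enrichment 3.89, and PRSS16, which encodes a thymus protease, with fold enrichment 2.44. The intervals of these 16 genes overlapped those of the histone genes for both proteins.

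Histone genes elsewhere in the genome were then taken as a comparison. Of 42 such genes outside the cluster, PHF13 peaks lay within 1 kb of 8 (19%, 9.98 to 33.3) and EZH2 peaks within 1 kb of 2 (4.76%, 1.32 to 15.8). Among the 16 of them with replication-type symbols, PHF13 peaks lay at 6 (37.5%, 18.5 to 61.4) and EZH2 peaks at 0. The 6 were H2AC19, H3C15, H2BC21, H2AC20 and H2AC21 of the chromosome 1 cluster and H4C16 on chromosome 12. The peak shared by H2BC21 and H2AC20, with fold enrichment 4.43 and −log10 q 9.58, stood just below that of H2BC3, whereas the sequences at H2AC19 and H3C15 are present in 2 copies, so their peaks cannot be placed with certainty. The EZH2 peaks were at H1-8, the oocyte linker histone, and MACROH2A2, a variant H2A, where the peak reached a fold enrichment of 4.11 at −log10 q 28.9. MACROH2A2 was the only 1 of these 42 genes with peaks of both lists within 1 kb, which lay at different starts of the gene (chr10:71811778-71814176 for EZH2 and chr10:71867358-71867615 for PHF13).

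**Figure D4:**
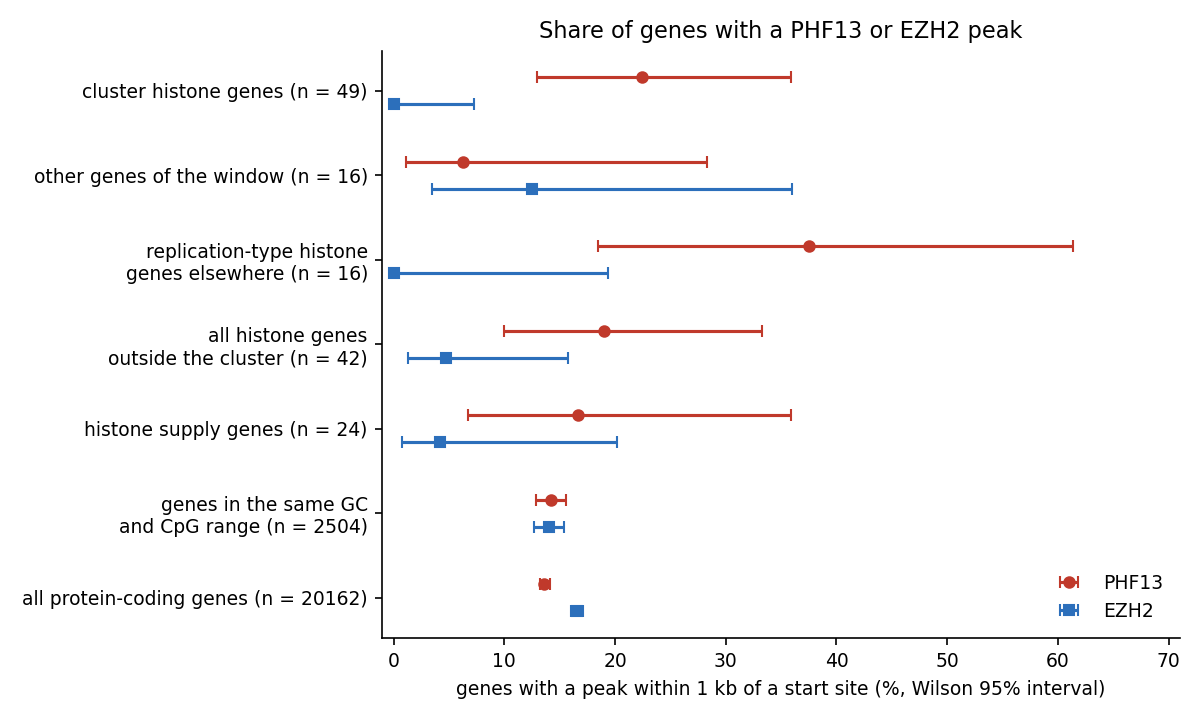
Share of genes with a PHF13 (red circles) or EZH2 (blue squares) peak within 1 kb of a start, in percent, with Wilson 95% intervals, for the cluster and 6 comparison sets with their number of genes. The cluster stands at 22.4% for PHF13 and 0% for EZH2, and for EZH2 its interval ends at 7.27%, below the 16.6% of all genes.

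The genes that supply and process histones were examined as a list of 24, which holds the S-phase activators of histone genes, the factors that process the 3′ ends of their messages and the chaperones and acetyltransferases that carry the proteins to DNA. PHF13 peaks lay within 1 kb of 4 (16.7%, 6.68 to 35.9), close to the background. These were RBBP4, a histone chaperone, HAT1, the acetyltransferase of new histone H4, CPSF2, a cleavage factor, and CCNE1, the cyclin of S-phase entry, with fold enrichments of 3.04, 3.58, 3.63 and 3.0. Within 5 kb the count was 6, with LSM10 of the U7 particle and the H3.3 chaperone DAXX. An EZH2 peak lay at 1 of the 24, SYMPK, a scaffold of the cleavage complex, with fold enrichment 5.78.

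Polycomb proteins are known to favour CpG-rich promoters, so base composition was compared as well. The members' 500 bp windows around the start had a median GC content of 50.4%, from 43.4 to 59.4, beside 64.4% over all genes, and a median CpG ratio (observed over expected) of 0.908 beside 0.775. Of 2504 other genes within the members' range of both measures, 14.2% had PHF13 (12.9 to 15.6) and 14% EZH2 (12.7 to 15.4) within 1 kb. The cluster's 0 of 49 for EZH2 stood below the share of genes in this range, and the 22.4% for PHF13 had an interval that reached down to 13%, below their 14.2%. The range ran from the members' lowest to highest values, a CpG ratio of 0.382 to 1.1, so it was not a CpG-rich set. Of 13488 other genes with a CpG ratio of at least 0.6 and GC of at least 50%, 17.2% had PHF13 and 19.2% EZH2 within 1 kb. For PHF13 this share also lay inside the members' interval. Neither set was matched to the members gene by gene or in number of starts, and the part of composition was not tested. Members with and without a PHF13 peak within 1 kb had median GC contents of 51.6 and 50% and median CpG ratios of 0.915 and 0.907.

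The promoters of the cluster share motifs that the choice of members did not use. In the 250 bases before the start, on either strand, TATAAA stood in 33 of 49 members (67.3%) beside 9.40% of all promoters, and CCAAT in 43 (87.8%) beside 34.1%. The octamer ATTTGCAT stood in 18 (36.7%) beside 1.53%, and these were 9 H2A and 9 H2B genes. AP-1 stood in none, beside 3.06%, which lies inside the Wilson interval of 0 of 49 (up to 7.27%). Of the 11 members with a PHF13 peak within 1 kb, 7 held TATAAA, 9 CCAAT and 2 the octamer, and of the 38 without, 26, 34 and 16 did. A match describes the letters and is not a binding site.

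Histone genes resemble each other, and reads from repeated sequence can be lost or misplaced, so the share of 24-base words that occur once in the genome was counted over each gene's canonical transcript. Its median was 98.1% in H1, 77.6% in H2A, 59.1% in H2B, 88.3% in H3 and 92.3% in H4 genes. The lowest were the H4 genes H4C11 and H4C12, at 6.83 and 6.87%, neither of which had a PHF13 peak within 5 kb. Members with a PHF13 peak within 1 kb had a median of 88.7% and those without 81.7%. In the 500 bases before the start the medians were 99 and 92.7%. The part of sequence copies in which members had a peak was not tested. Only 1 of the 11 member peaks lay on repeated sequence, beside 33.9% of the PHF13 list.

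**Figure D5:**
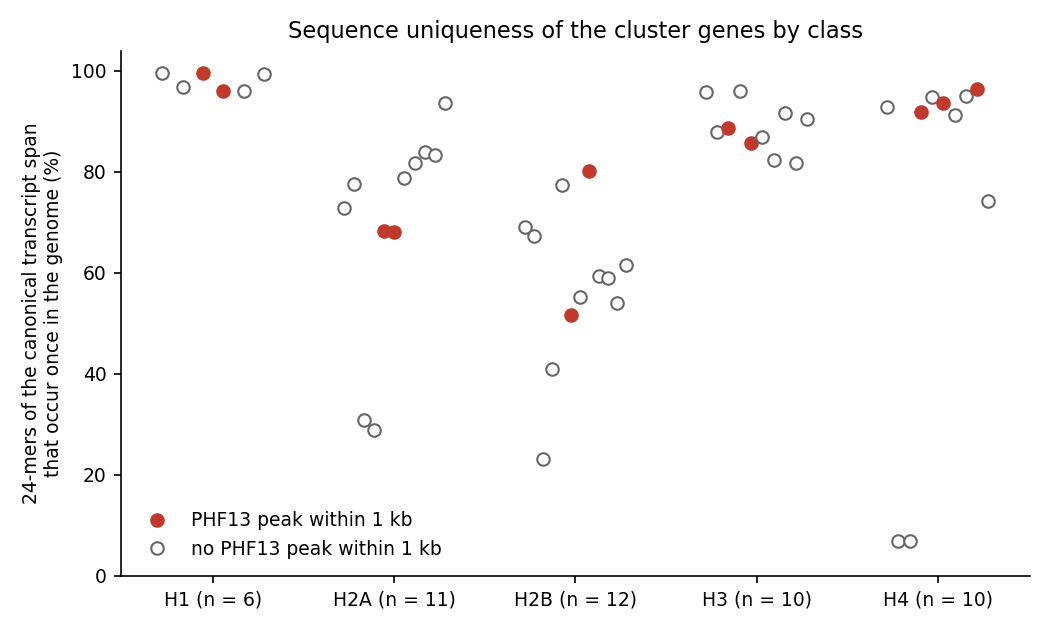
Share of 24-base words of the canonical transcript that occur once in the genome, in percent, for each cluster gene by histone class, with genes that had a PHF13 peak within 1 kb filled in red. H2A and H2B genes reach lower than H1 and H3 genes, and H4C11 and H4C12 stand apart at 6.83 and 6.87%.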

How the data were processed

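The 2 deposited narrowPeak tables were used, 1 for the PHF13 and 1 for the EZH2 library. Per the labels and the methods of the study, the authors trimmed reads with Trim Galore 0.4.1, aligned them to hg19 with Bowtie2 2.4.1, dropped PCR duplicates (Picard) and ran MACS2 2.2.7.1 against input. By default Bowtie2 reports 1 place for reads with several, and no filter on mapping quality is stated in the sources used here. The stated limit for PHF13 was q of 0.001 and EZH2 was to be called as broad peaks, yet both deposited lists are narrow and reach down to −log10 q of 1.30 and 1.31. The deposited values are the fold enrichment at the summit as a ratio over the local background, the −log10 of p and of q, and a score made from q. In that ratio 1 is added to the fragments and 1 to the background. No column of another sample was used (0 columns).

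Peaks were assigned to the start of every transcript of 20162 protein-coding genes in GENCODE release 44 mapped to GRCh37, by the distance from the peak edge (limits 1 and 5 kb). Fragments and background at a summit were solved from fold enrichment and p, which gave a whole number for 100% of peaks in both lists. A summit counted as single-copy if the median 24-base word in the 100 bp around it occurs once in the genome. Every member with a peak within 1 kb was named, then, among those with a peak within 5 kb only, the 5 with the highest −log10 q per list, and non-members only where they stand in a comparison list. The lists were histone genes outside the cluster, other genes of the window and 24 histone supply genes. The members and lists were chosen with earlier results of these data known. Alternatives were limits of −log10 q of 3 and 5, 1 start per gene, the distance from the summit and single-copy peaks only. The 1 start was the 5′ end of the gene record. Counting HIST1H4B as a member was an alternative chosen after seeing the data. Python 3.11.15, pandas 2.3.3, scipy 1.17.1, numba 0.67.0 and pysam 0.24.0 were used, and the programs were tested on simulated data.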

Additional observations from a re-analysis of the deposited data

How the results depend on the processing

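With only peaks of −log10 q of at least 5, the members with a PHF13 peak numbered 3 within 1 kb (H3C2, H2BC3 and H4C4) and 5 within 5 kb, beside a background of 3.98 and 6.62% of all genes. With a limit of 3 they numbered 8 and 12, beside 9.08 and 14%. No interval was computed for the counts under either limit. With 1 start per gene, distances from the summit, or single-copy peaks only, the counts were again 11 and 15, and the background within 1 and 5 kb was 9.63 and 14.6%, 13.4 and 20.8%, and 12.4 and 18.1%. It lay below the members' intervals with 1 start per gene and with single-copy peaks, and inside them with distances from the summit. The 1 start was the 5′ end of the gene record, which is not always the canonical start. The EZH2 count within 1 and 5 kb and the count with both were 0 with HIST1H4B counted too. The other alternatives can only remove peaks or starts or lengthen distances, so a count of 0 could not change under them. The median fold enrichment of the 12 PHF13 peaks within 5 kb was 3.37 and ran from 3.40 to 3.45 under the alternatives, inside the 95% interval of the median (3.15 to 4.15). The EZH2 lists gave no peak near a member, so this median has no EZH2 value. No paired analysis was possible because each antibody had 1 library. Peak lists hold no depth, and a region without a peak can be unbound, below the caller's limit or poorly covered, and these cannot be told apart here.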
